A study of Drosophila melanogaster with 15 samples.

Results

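The 10 genes described here are aop and 9 other genes of the EGFR/Ras/MAPK pathway: pnt, Egfr, Ras85D, phl, Dsor1, rl, sty, cnk and csw. They were found by gene symbol in all 6 deposited lists of the series, and 8 of the 10 had at least 1 row, of 7766 genes named in any list. The lists came from ChIP-seq of mushroom body nuclei of adult flies labelled as strain CS10 (the study's control line is w(CS10)), purified through a FLAG-tagged KASH protein in the nuclear membrane. Every group carried this tag under the MBp-LexA driver, so neurons of the α′/β′ lobe, where the driver is weaker than in the other lobes, are less well covered. For each of H3K9Ac and H4K16Ac there were 3 libraries from naive flies and 3 from flies 1 day after spaced training, and for CREB and CRTC 1 library each, from flies 1 day after spaced training, beside 1 input library from naive flies. The lists give no value per library and no depth, so the marks are compared here only by which regions were listed as increased after training, no test of naive against trained flies could be run, and CREB and CRTC have a single library each in this series, while naive or replicate libraries of these factors were not analysed here. Each library pools many brains, so a change in every mushroom body neuron cannot be told apart from a larger change in some of them. The study used both females and males, and the lists do not separate them.

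In this pathway the receptor tyrosine kinase Egfr, once bound by its ligand, activates the small GTPase Ras85D, which turns on a kinase cascade of phl (the fly Raf), Dsor1 (MEK) and rl (ERK). In the nucleus rl phosphorylates the ETS proteins aop, also called Yan, a repressor that is then exported and degraded, and Pointed, encoded by pnt, an activator of the same target genes. The adaptor cnk holds Raf near Ras, the phosphatase csw (the fly SHP2) carries the receptor's signal forward, and sty (Sprouty) holds the pathway back. The pathway is best known for cell fate choices in the developing eye, and its kinases also act in learning and memory in flies and mammals. H3K9Ac and H4K16Ac mark active chromatin, CREB is a transcription factor needed for long-term memory, and CRTC is its coactivator.

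Binding was widespread over the pathway. A CREB site was named for 7 of the 8 genes with any row, against 32.7% of the 7766 genes, and a CRTC site for the same 7 genes, against 21.5%. A CREB/CRTC site, counted where CREB lay no more than 200 bp from the CRTC site, was again present at all 7 (aop, pnt, Egfr, Ras85D, phl, sty and csw), against 18.0% of the 7766 genes. The 7 genes held 31 CREB sites and 26 CRTC sites, of which 20 CRTC sites were CREB/CRTC sites. Acetylation peaks were named for 7 of the 8 genes for each mark (aop, Egfr, Ras85D, phl, sty, cnk and csw), beside 65.8% of the 7766 genes for H3K9Ac and 76.1% for H4K16Ac. Only genes with a row enter these shares, and long genes offer more room for rows, which was not tested.

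After spaced training, H3K9Ac was listed as increased at aop, cnk and csw and H4K16Ac at aop, phl and sty, with 1 region per gene and mark. The deposited lists of increased regions differ in length from the regions that the study called changed by its adjusted p-value, so being listed as increased does not mean here that a region passed that test. These are 3 of the 7 genes with an H3K9Ac peak, where the whole list gave 30.2%, and 3 of the 7 with an H4K16Ac peak, where it gave 19.7%. Each count is of only 7 genes and is given as a description. The lists hold only regions within 500 bp of a start site, so peaks further from one could not be listed. The gene aop alone was listed for both marks, 1 of 7 genes with peaks of both, against 8.77% of the 4502 such genes. The study picked aop among its candidate genes from these experiments, so its place in both lists is no independent evidence.

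**Figure D1:**
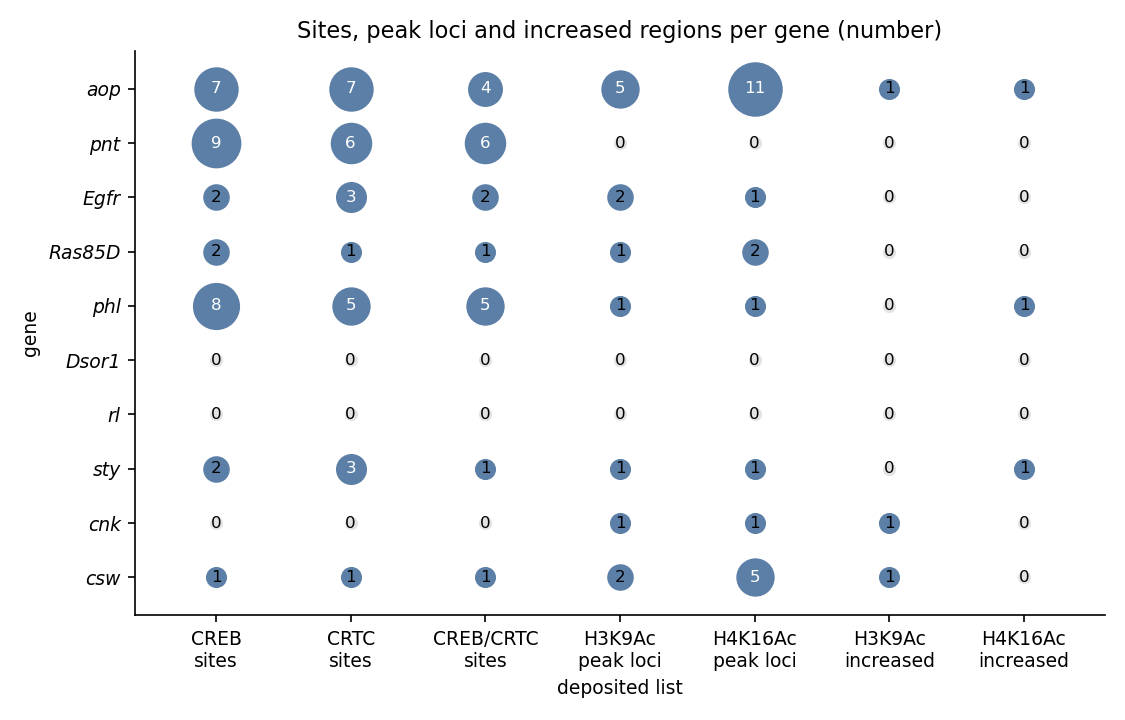
Number of rows per gene (vertical axis) in each kind of list (horizontal axis); the area of a disc grows with the number printed in it, and peaks are counted as loci after overlapping windows of 400 bp were merged over the 3 runs of each table. The gene aop has rows of every kind, pnt has 9 CREB sites and no acetylation peak, and Dsor1 and rl have no row.

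The aop locus on chromosome arm 2L (dm3) carried rows of all 6 kinds over 18250 bp, and no row within that stretch had another symbol. The distances to start sites in the CREB and CRTC lists place 2 start sites at aop, at 2178753 and 17227 bp further downstream at 2161526, with the gene read on the minus strand. The increased H3K9Ac region, chr2L:2178368-2178768, and the increased H4K16Ac region, chr2L:2178331-2178731, shared 363 bp at the upstream start site and were annotated there as 5′UTR. A CREB site at chr2L:2178692-2178779 with an enrichment factor of 7.47 (ChIP reads over background reads, as the ERD caller gives it) overlapped both regions, and so did a CRTC site at chr2L:2178675-2178764 with a factor of 3.57. At this start site, therefore, both factors and both listed increases met within the width of a peak window. A second CRTC site, at 2178463, lay inside both regions too but missed the limit for a CREB/CRTC site, at 209 bp from the nearest CREB site.

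The other aop sites fell into groups along the gene. The strongest was in an intron, 1435 bp upstream of the downstream start site, where CREB at chr2L:2162962-2163056 had a factor of 12.23, above 89.4% of the list or equal to it, and CRTC at chr2L:2162963-2163059 a factor of 5.50, at percentile 66.6. Further CREB/CRTC sites lay at the downstream start site (CREB 3.73, CRTC 4.25) and 3095 bp into the gene from the upstream start site (CREB 4.91, CRTC 4.96). The remaining 3 CREB sites, with factors of 3.26 to 6.09, and 2 CRTC sites, with 3.00 and 3.57, had no partner within 200 bp. The strongest aop site was thus not at the start site where acetylation was listed as increased, but 15275 bp from it. Increased regions could be listed only within 500 bp of a start site, and this binding site lay 1435 bp from one. In number, 7 CREB sites placed aop at rank 39 of 2536 genes and 7 CRTC sites at rank 22 of 1671.

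Acetylation of aop was spread over many weak peaks. Each peak table consists of 3 genome-wide runs of rows without sample names, so a run is not assigned here to a library or a condition. The H3K9Ac table named 12 peaks for aop in 5 loci, with 3, 4 and 5 peaks in the runs, and the H4K16Ac list named 19 in 11 loci, with 6, 6 and 7. Their PICS scores, which measure a peak against input and have no fixed range, had a median of 1.34 for H3K9Ac (0.465 to 2.85) and 1.52 for H4K16Ac (0.637 to 3.17). Only 1 of the 12 and 3 of the 19 exceeded the median of their list, 2.13 and 1.91. The gene stood out by the number of its peaks, rank 180 of 5109 genes for H3K9Ac and rank 56 of 5912 for H4K16Ac, not by their height.

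Single aop loci differed in how often they returned. The H3K9Ac locus at the upstream start site was found in every run with scores of 1.31, 1.10 and 1.17, while the H4K16Ac locus there was found in runs 1 and 3, with 1.27 and 0.637. The intronic locus near the strongest CREB site had H4K16Ac scores of 1.52, 3.17 and 1.59 in the 3 runs and H3K9Ac scores of 1.53 and 1.86 in runs 1 and 3. A second intronic locus, 1936 to 2127 bp inside the upstream start site, had H4K16Ac scores of 1.80, 1.36 and 1.53. The start site with increases of both marks therefore held lower scores than these introns in each run where both were found. The introns lay more than 500 bp from the start sites implied for aop, beyond the reach of the lists of increased regions. Whether their acetylation changed is therefore not known from the lists.

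**Figure D2:**
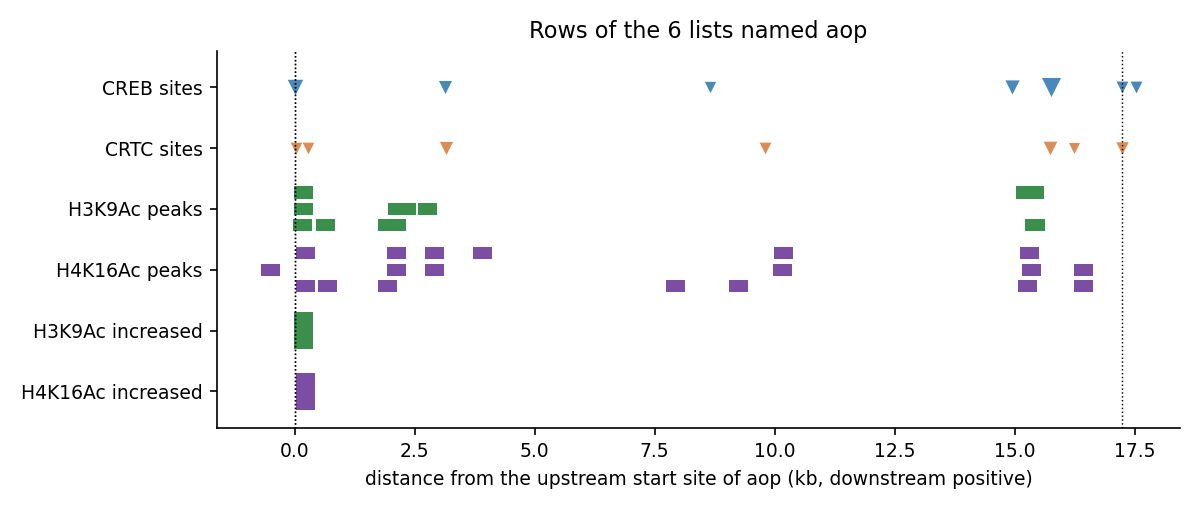
Map of the rows named aop, with the distance from its upstream start site in kb on the horizontal axis and a track per list; triangles are CREB and CRTC sites (larger for a higher enrichment factor), bars are windows of 400 bp (the 3 rows of a peak track are runs 1 to 3), and dotted lines are start sites implied by the lists. The increased regions of both marks sit at the upstream start site, and the CREB site with the factor of 12.23 sits near the downstream one.

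The gene pnt, which encodes the activator that competes with aop, also showed much binding, but had no acetylation peak. It had 9 CREB sites, rank 17 of 2536 genes, with factors of 5.48 to 11.49, and 6 CRTC sites, rank 28 of 1671, with factors of 2.93 to 8.66, and all 6 CRTC sites were CREB/CRTC sites. The sites spanned 52972 bp of chromosome arm 3R, between 19119040 and 19172012, and within this span neither peak table had a row of any name. The nearest window to any pnt site was 1746 bp away for H4K16Ac, named DNApol-epsilon, and 9282 bp away for H3K9Ac, named ATPsyn-Cf6, and 0 of the 15 sites had a window of either mark within 200 bp. Over all genes 43.5% of CREB sites and 44.7% of CRTC sites lay within 200 bp of an H3K9Ac window, and 44.1% and 46.3% within 200 bp of an H4K16Ac window. A locus without a listed peak fell under the callers' limits, which does not show that it was free of acetylation.

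Near a start site, within 500 bp, lay 5 of the 9 CREB sites and 3 of the 6 CRTC sites of pnt, and the others were 1827 to 14672 bp and 1847 to 11596 bp away. The distances listed for these sites place 3 start sites, at 19171888, 19140037 and 19120959 on the minus strand, and a start site without a nearby row could not be seen this way. At the most downstream of these, 3 CREB sites between 19120984 and 19121412 shared a factor of 8.17, and a CRTC site at chr3R:19121206-19121314 had 8.66, at percentile 92.5 of its list. At the middle start site CREB had 5.48 and CRTC 2.93, and at the most upstream CREB had 6.67 and CRTC 4.23. Among the start sites, the most downstream thus had the highest factors. The highest CREB factor of the gene lay away from them, 11.49 at 2 neighbouring sites between the middle and the most upstream start site (chr3R:19160188-19160268 and chr3R:19160428-19160468), each with a CRTC site of factor 6.49. Neighbouring sites with the same factor may share an ERD region, which the list does not give, and the 31 CREB sites of the pathway hold 23 distinct values by gene and the 26 CRTC sites 21.

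Egfr, the receptor, had its CREB/CRTC sites apart from its highest acetylation peaks. Its CREB/CRTC sites lay upstream of an internal start site at 17435073 on 2R, with a CREB factor of 8.62 and a CRTC factor of 6.08 at 975 and 959 bp, and weaker values of 3.26 and 2.29 at 1949 and 1977 bp. Another CRTC site, with a factor of 2.78, overlapped the H4K16Ac peaks downstream, at chr2R:17437830-17437906. The acetylation peaks of Egfr formed an intronic locus at about this place, chr2R:17437000-17437816 for H3K9Ac, with best scores of 5.08, 4.61 and 6.83 in the 3 runs, and chr2R:17437160-17437876 for H4K16Ac, with 3.68, 2.95 and 4.72. The highest score of each mark was at percentile 97.8 of its table. A weaker H3K9Ac locus, with 1.99 and 1.55 in runs 2 and 3, lay 112 bp from the stronger CREB/CRTC site. Egfr had among the highest and most repeatable peaks of the pathway, and no increased region of either mark. The lists of increased regions hold only regions within 500 bp of a start site. The intronic locus with the highest scores lay further from the start sites implied for Egfr, so its absence does not show that it was unchanged.

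Ras85D, the GTPase, held everything in its 5′ end on 3R. A CREB site at chr3R:5338490-5338610 with a factor of 7.12 and a CRTC site at chr3R:5338506-5338611 with a factor of 4.72 formed its only CREB/CRTC site, 178 and 177 bp inside a start site at 5338788. Another CREB site with the same factor of 7.12 lay 694 bp inside. The H3K9Ac peaks over this start site scored up to 4.15 and 4.61 in runs 2 and 3, and the H4K16Ac peaks up to 3.17 and 4.61 in runs 1 and 2, so each mark lacked a Ras85D row in 1 run. In those runs the window nearest to the start site carried the symbol of the neighbouring gene Rlb1, 268 bp away with an H3K9Ac score of 1.01 in run 1 and 205 bp away with an H4K16Ac score of 1.91 in run 3. No region named Ras85D was listed as increased.

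The binding sites named for phl, the Raf gene, were all above the medians of their lists. All 8 CREB sites (factors of 6.21 to 11.26) and all 5 CRTC sites (5.98 to 8.53) exceeded the median of their list, 6.17 and 4.67, and all 5 CRTC sites were CREB/CRTC sites. The 8 CREB sites held 5 distinct factors and the 5 CRTC sites 4, so some may share an ERD region. These sites lay on the X chromosome between 2188671 and 2200160, around and downstream of a start site at 2189916. Their name is that given by the site lists, and whether they belong to phl was not tested. The strongest, chrX:2197901-2197988 for CREB (11.26) and chrX:2197921-2197994 for CRTC (8.53), was 7984 bp inside this start site. By number of CREB sites phl ranked 23 of 2536 genes.

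The acetylation rows named phl were elsewhere. All of them, 1 H3K9Ac peak and 7 H4K16Ac peaks, lay in a single stretch, chrX:2234232-2235380, and the region with increased H4K16Ac, chrX:2234232-2234632, began 34072 bp beyond the last phl binding site. The H4K16Ac peaks there scored at best 2.33, 2.23 and 2.71 in the 3 runs, and the H3K9Ac peak scored 2.10 in run 2 alone. The increased region was placed 73 bp inside a start site at 2234159, and the peak table placed the same window 6437 bp inside another start site at 2227994, so the 3 kinds of list used 3 different start sites for phl. Between the clusters were CREB sites named CG14050 and Ilp6, the nearest 5947 bp from the increased region, with a factor of 6.59. The phl binding cluster itself was not bare of acetylation: 18 H4K16Ac windows without any gene name lay between 2194508 and 2200613, with scores of 0.779 to 8.92. The highest of them, in run 3, was at percentile 99.9 of the table, 47 bp from a CREB site and 55 bp from a CRTC site named phl. An H3K9Ac peak without a gene name, chrX:2199777-2199833 with a score of 1.82, lay there too. Of the 13 phl sites, 4 were within 200 bp of an H3K9Ac window. Counted by symbol alone, these unnamed windows belonged to no gene.

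Dsor1 and rl, the last kinases of the cascade, had no row in any list. Of the 3 annotated protein-coding genes on either side of Dsor1 on X, 5 had acetylation peaks, and its direct neighbour amx had 4 H3K9Ac peaks, 6 H4K16Ac peaks, 2 regions of increased H3K9Ac and 1 of increased H4K16Ac. A row carries the name of a single gene, so a peak near Dsor1 may stand under amx. The distance of the amx rows from Dsor1 was not examined, so this was not tested. The gene rl lies in the heterochromatin next to the centromere of chromosome 2, and the 3 genes on either side of it had no row under their RefSeq names. A RefSeq name can differ from the symbol in the lists, as Raf does for phl. The missing rows of these neighbours therefore do not show that the region was empty. The lists hold rows on the arms 2L, 2R, 3L, 3R, 4 and X only, and whether reads from heterochromatin could enter them was not tested.

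**Figure D3:**
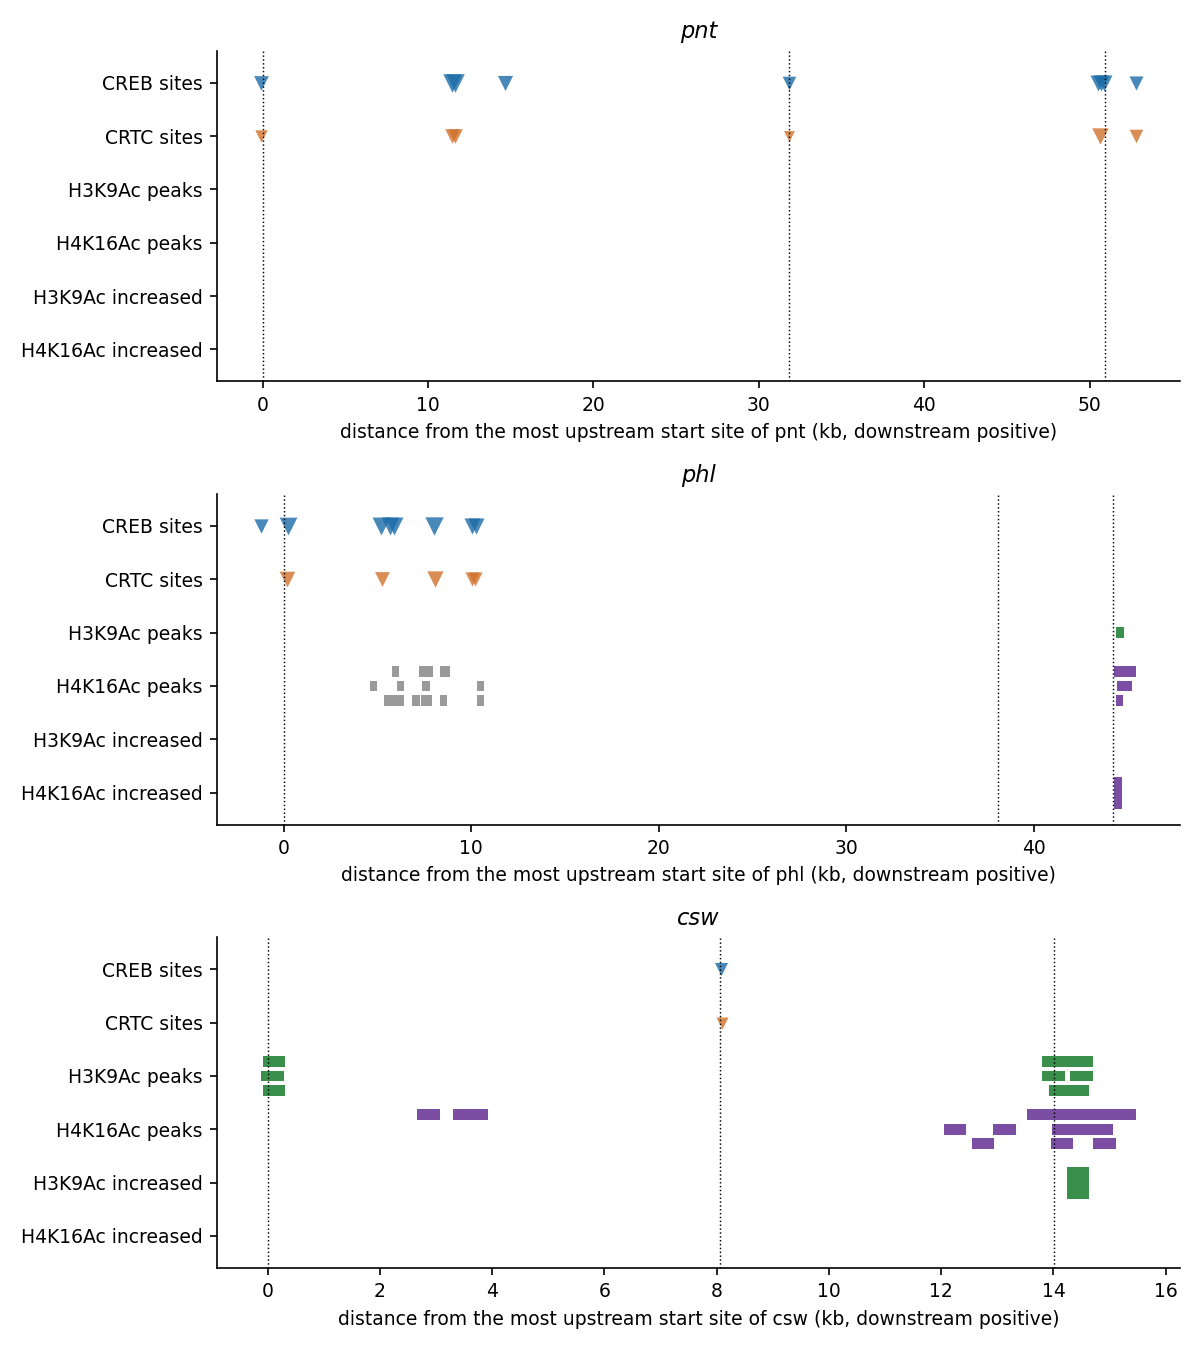
Maps of pnt, phl and csw, drawn as for aop, with the distance from the most upstream start site of each gene in kb on the horizontal axis. Grey bars in the phl panel are H4K16Ac windows without a gene name. The H3K9Ac window without a gene name at phl and windows named for other genes are not drawn. At pnt there are only binding sites, at phl the 13 sites and the increased H4K16Ac region are 34072 bp apart, and at csw the CREB/CRTC site lies between the clusters of peaks.

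Among the regulators, sty combined a CREB/CRTC site with increased H4K16Ac. The increased region, chr3L:3417945-3418345, lay just upstream of a start site at 3417927 and contained a CREB site with a factor of 4.57 and a CRTC site with a factor of 7.06, 14 bp apart. Further out, a CRTC site of the same factor of 7.06 and a pair of weaker sites (CREB 4.73, CRTC 4.69, 354 bp apart) had no partner within 200 bp. H4K16Ac scored 1.65, 1.96 and 1.66 in the 3 runs at this locus, and H3K9Ac at the adjoining locus scored 3.91, 4.70 and 3.77. The mark with the higher score, H3K9Ac, was not the one listed as increased, and PICS scores of different marks are not on the same scale. In their lists the CRTC factors of 7.06 were at percentile 84.1, while the CREB factors were at percentiles 28.9 and 31.4.

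The adaptor gene cnk had acetylation and no binding site of its own. Its region of increased H3K9Ac, chr2R:13306739-13307139, covered its start site at 13307104 and rested on a single peak, found in run 3 with a score of 3.83. The H4K16Ac peak at the same place was found in run 1 with a score of 2.86. The nearest CREB site, with a factor of 4.19, was 743 bp away and the nearest CRTC site, with a factor of 4.68, was 1224 bp away, and both were named for the neighbouring gene l(2)k01209. Without a second run with the peak, the cnk region has no repeat in the tables.

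The phosphatase gene csw on X had its binding and its increased region in different parts. Its single CREB/CRTC site (CREB chrX:1996313-1996364 with a factor of 4.97, CRTC chrX:1996343-1996380 with 3.95) lay at a start site at 1996322 and was under the median of both lists. The H3K9Ac peak at the most upstream start site, chrX:1988155-1988586, was among the highest of the pathway and was found in every run, with 4.58, 6.74 and 4.65. The increased H3K9Ac region, chrX:2002507-2002907, lay instead at the most downstream start site, at 2002282, in a locus with H3K9Ac scores of 2.45, 2.72 and 2.84, and was 6127 bp from the CREB/CRTC site. For H4K16Ac csw had 17 peaks, rank 73 of 5912 genes, most of them in a block of 1946 bp over the same start site with best scores of 2.12, 2.59 and 1.64, but no increased region. Both marks thus covered this start site in all 3 runs, and an increase was listed for H3K9Ac alone. The ranks and percentiles of csw and phl, both on X, were taken over all arms together. A comparison within X was not made.

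**Figure D4:**
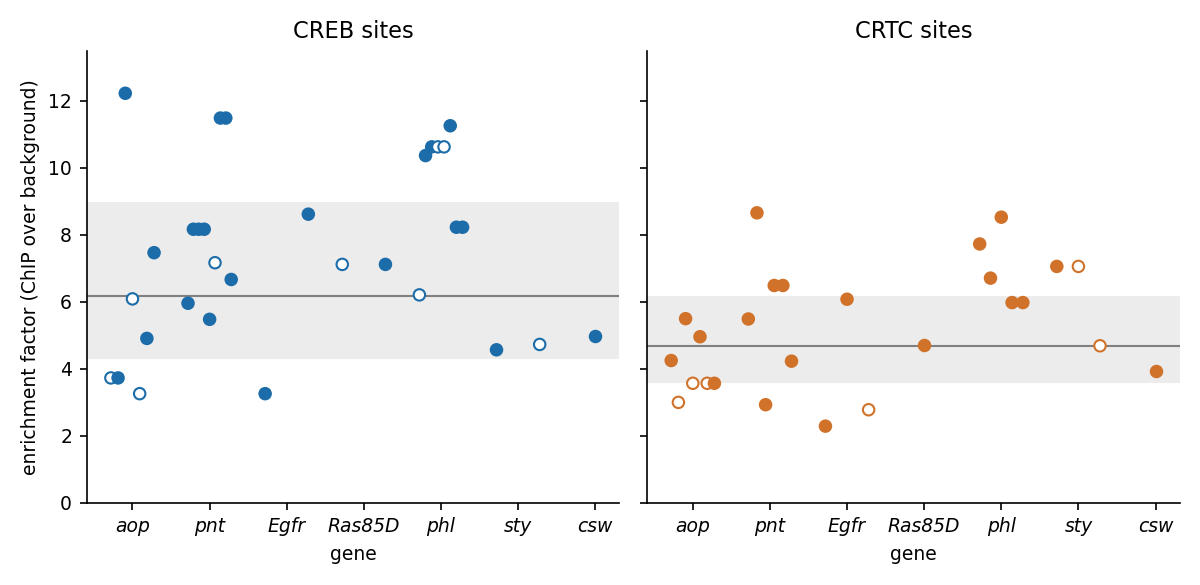
Enrichment factors (vertical axis) of all CREB and CRTC sites named for each gene, in order along the chromosome; filled symbols have a site of the other factor within 200 bp, the line is the median of the whole list and the grey band spans its quartiles (4.33 to 8.96 for CREB, 3.60 to 6.14 for CRTC). All sites of phl are above the median, and those of csw are below it.

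Taking the sites of the 7 genes as a group, their factors had a median of 7.17 for CREB (3.26 to 12.23, 31 sites) and 5.22 for CRTC (2.29 to 8.66, 26 sites), beside medians of 6.17 and 4.67 over all sites. Of the sites, 20 CREB and 16 CRTC sites were above the median of their list, and phl and pnt gave 15 of the former and 9 of the latter. Within 500 bp of a start site were 12 of 31 CREB sites (38.7%, against 56.7% of all CREB sites) and 10 of 26 CRTC sites (38.5%, against 54.4%). Within 200 bp of an H3K9Ac window were 9 of 31 CREB sites (29.0%, against 43.5% of all) and 10 of 26 CRTC sites (38.5%, against 44.7%). Within 200 bp of an H4K16Ac window were 13 of 31 CREB sites (41.9%, against 44.1%) and 13 of 26 CRTC sites (50.0%, against 46.3%). Increased H3K9Ac regions were within 200 bp of 1 of the 31 CREB sites (3.23%, against 9.97% of all) and 2 of the 26 CRTC sites (7.69%, against 8.96%). Increased H4K16Ac regions were within 200 bp of 2 CREB sites (6.45%, against 9.56%) and 4 CRTC sites (15.4%, against 10.1%), so the shares of the pathway lay on either side of those of the lists. The sites of a gene share their locus, so these shares are descriptions and were not tested.

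Seen from the acetylation side, 15 of the 40 H3K9Ac peaks (37.5%) and 13 of the 55 H4K16Ac peaks (23.6%) of the pathway had a window within 200 bp of a CREB/CRTC site, beside 12.4% and 10.6% of all peaks. The runs repeat the same places, and the 40 and 55 peaks form 13 and 22 loci. All genes with peaks here except cnk hold a CREB/CRTC site, against 18.0% of the 7766 genes, so these shares are descriptions and were not tested. The median scores, 1.94 for H3K9Ac and 1.65 for H4K16Ac, were slightly below those of the tables, 2.13 and 1.91. In loci found in all 3 runs lay 27 of the 40 H3K9Ac peaks (67.5%, against 76.3%) and 34 of the 55 H4K16Ac peaks (61.8%, against 65.2%). Loci were joined here whatever the gene name, so those at the Ras85D start site reached 3 runs through windows named Rlb1. Of the 6 increased regions, 3 overlapped a CREB/CRTC site, those of aop for both marks and of sty for H4K16Ac, and the others were 1224 to 14384 bp from the nearest.

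**Figure D5:**
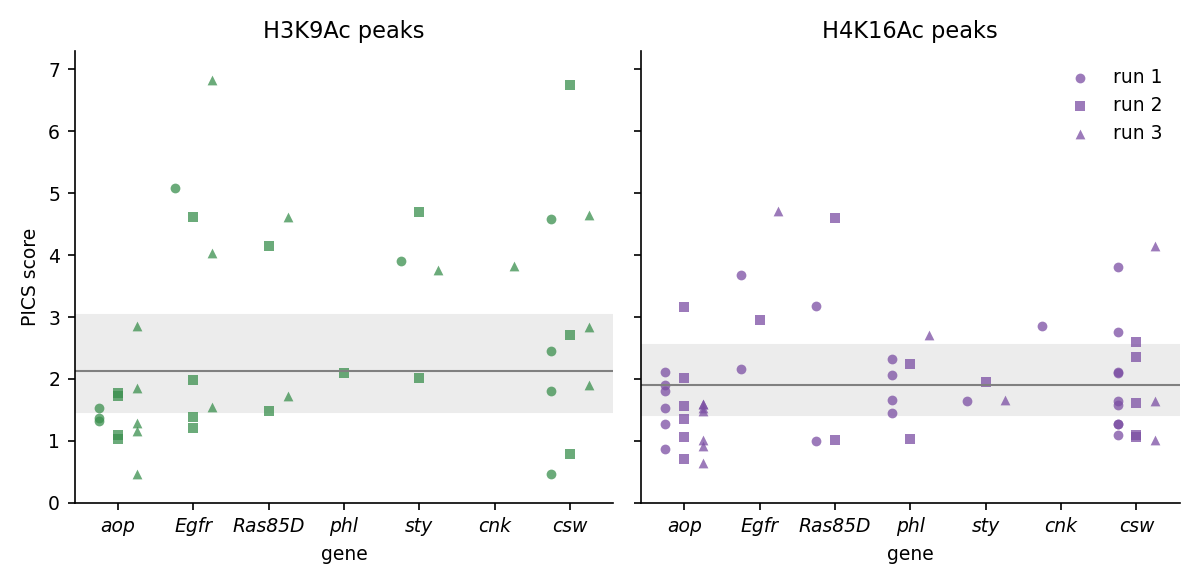
PICS scores (vertical axis) of every H3K9Ac and H4K16Ac peak named for each gene, by run of the table (symbols); the line is the median of the whole table and the grey band spans its quartiles (1.47 to 3.04 for H3K9Ac, 1.42 to 2.55 for H4K16Ac). Most peaks of aop lie below the median, and the highest peaks belong to Egfr, csw, sty and Ras85D.

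A list of 47 other genes of the pathway and of related receptors showed how the 10 genes compare with their partners. Of these, 37 had a row in any list, and among the 37 a CREB site was named for 26, a CRTC site for 21 and a CREB/CRTC site for 20, where the shares over all 7766 genes were 32.7%, 21.5% and 18.0%. Increased H3K9Ac was listed at 15 of the 28 with an H3K9Ac peak, beside 30.2% of all such genes, and increased H4K16Ac at 12 of the 27 with an H4K16Ac peak, beside 19.7%, and at 3 more without a peak of their name. Increased regions of both marks were listed at 7 of the 25 with peaks of both, beside 8.77%: spi, the main Egfr ligand, Gap1 and vap, which switch Ras off, gro, a corepressor, Spred, a relative of Sprouty, 14-3-3zeta, which binds Raf, and mts, the catalytic subunit of the phosphatase PP2A. Of these, spi had 1 region of increased H3K9Ac and 3 of increased H4K16Ac together with 4 CREB/CRTC sites, and 14-3-3zeta had 6 and 3 regions with 2 such sites. The gene vap had no CREB or CRTC site. The highest CREB factors at CREB/CRTC sites were 21.51 at Rala, a Ras-like GTPase, 18.99 at ttk, a repressor of neural fates, and 16.31 at InR, the insulin receptor, each above the 12.23 of aop. The 10 genes without a row were drk and Sos, which link Egfr to Ras85D, the ligand genes vn and grk, ru, phyl and the receptor genes btl, htl, tor and sev.

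The genes most like aop in 4 measures, the highest CREB factor, CRTC factor, H3K9Ac score and H4K16Ac score of a gene, were sought among 719 genes with all 4. The nearest were HmgD, CG8929 and l(1)G0469, at distances of 0.199, 0.386 and 0.428 in units of the SD over genes on the log2 scale. The nearest gene of the pathway was phl at 1.25, with rank 125, and csw was the farthest at 2.57, with rank 530. The pathway genes were thus spread over the ranking, and pnt, cnk, Dsor1 and rl lacked some of the 4 measures.

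Of markers for the tissue label, 9 of 10 for the mushroom body (ey, toy, dac, Fas2 and others) and 4 of 5 for neurons had an acetylation peak. For H3K9Ac these were 7 of the 10 and 4 of the 5, beside 65.8% of the 7766 genes named in any list. For H4K16Ac they were 7 and 3, beside 76.1%. Markers without any row stay in these counts, while the shares cover only genes with a row, so the 2 are not directly comparable. The counts do not by themselves check the tissue. Peaks were also named for 3 of 5 glial markers, led by Gs2 with 8 H3K9Ac and 9 H4K16Ac peaks while repo had 0, for 2 of 5 photoreceptor markers, 1 of 3 muscle markers (Mef2, which mushroom body neurons also express) and 0 of 4 fat body markers. What nuclei of other cells added to the peaks of the 10 genes was not tested.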

How the data were processed

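Per the study's methods, the authors mapped the reads of each library to dm3, filtered them on mapping quality, and took as peaks what PICS and ERD both called over input DNA. The deposited site lists hold, beside the authors' PICS false discovery rate (used here as no p-value), the enrichment factor, a ratio of ChIP to background reads, blank for 2 CREB sites. The deposited peak tables hold the authors' PICS score. The lists of increased regions also hold the authors' own mean spaced-to-naive change, its SD and a p-value headed t-test, which were not used. The study's methods call changed windows by an adjusted p-value. The deposited lists hold a different number of regions, all within 500 bp of a start site, and their criterion is not given in the sources used here.

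Rows were matched by gene symbol with Python and pandas. Peaks were widened to windows of 400 bp around their centre, CRTC sites within 200 bp of a CREB site were called CREB/CRTC sites, percentiles are shares of the list at or below a value, and start sites were computed from the listed distances. Gene identities and neighbours came from RefSeq names only, and all 10 members matched (phl as Raf). The distance function was tested on simulated intervals. The planned count test and promoter motif search were not run, since the files used here hold no counts and no sequence was used. The text names all members, the other pathway genes with both marks increased or the 3 highest CREB factors at a CREB/CRTC site, and the 3 genes nearest to aop; the pathway genes without a row and the genes beside the members were named after their values were seen. Members and lists were chosen with earlier results of these data known. Alternatives tried were stricter enrichment factors, other distances, naming by position, and peaks in every run or of high score.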

Additional observations from a re-analysis of the deposited data

How the results depend on the processing

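The counts of genes were recomputed under 16 alternatives, and 13 stayed within 1.5 times the reported count. Requiring a site within 200 bp of a peak window named for the same gene left 4 genes with a CREB site and 4 with a CRTC site (aop, Egfr, Ras85D and sty) in place of 7, since the peaks of phl and csw carry that name elsewhere and pnt has none. An enrichment factor of at least 5 at both sites left 4 genes with a CREB/CRTC site (aop, pnt, Egfr and phl) in place of 7, and direct overlap left 6. Merging overlapping windows changed the H4K16Ac windows of phl from 2 to 1. Requiring a window found in every run left 2 genes with increased H3K9Ac (aop and csw) and 2 with increased H4K16Ac (phl and sty) in place of 3. The H4K16Ac region of aop dropped out, as its window was found in 2 runs, so under this setting no gene kept both marks. Naming increased regions by the peak table left 3 and 3. No paired analysis was possible because the lists hold no value per library, and for the same reason leaving out each replicate was not run. Depth is not given in the lists, and replicate spread was not examined, since the SD in the lists of increased regions was not used. Binding rests on 1 library per factor.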

Other observations

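Among the other pathway genes, chosen after their values were seen, the marks were named very unequally at some. The gene edl, whose product blocks the ETS proteins of the pathway, had 5 H3K9Ac peaks and 0 H4K16Ac peaks, with 1 CREB/CRTC site of CREB factor 9.25 and CRTC factor 5.13. The gene kek1, a feedback inhibitor of Egfr, had 10 H3K9Ac peaks and 0 H4K16Ac peaks, and a region of increased H3K9Ac. The gene ttk had 1 H3K9Ac peak and 17 H4K16Ac peaks, with 2 regions of increased H4K16Ac. The repressor gene cic, another target of rl, had 6 CREB and 4 CRTC sites and a region of increased H4K16Ac under its own symbol, but 0 peaks in either table under that symbol.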
